A study of Mus musculus with 4 samples.

Results

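The 8 genes *Stra8*, *Ythdc2*, *Meioc*, *Mtl5*, *Zfp541*, *Kctd19*, *Mybl1* and *Tcfl5* encode regulators of meiotic entry and of transcription in meiotic prophase, and their ribosome-protected fragment (RPF) abundance was compared between control and *Eef1g*-cKO spermatocytes. They were chosen by name among the 11598 genes of the deposited expression table. Of these, 7 were found under their own symbol, with *Mtl5* being the older symbol of *Tesmin*, and *Meioc* was found under its older symbol *Gm1564*. The measurements were ribosome profiling (Ribo-seq) of leptotene and zygotene spermatocytes sorted by FACS from mouse testes at 12 dpp, with 2 control libraries labelled wild type and 2 *Eef1g*-cKO libraries. In *Eef1g*-cKO mice, a floxed allele of *Eef1g*, a subunit of the translation elongation factor eEF1B complex, was deleted in germ cells by *Stra8*-GFPCre, and the control mice were littermates. The floxed line was on a C57BL/6J background. The driver takes its expression from *Stra8*, 1 of the 8 genes. Whether the control mice carried it was not given in the sources used here, so that at *Stra8* itself the driver and the loss of *Eef1g* cannot be told apart.

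Retinoic acid induces *Stra8* in premeiotic male germ cells, and STRA8 works together with its partner MEIOSIN to switch on the meiotic gene program. The germ cell protein MEIOC and the RNA helicase YTHDC2 bind each other and act on RNA, which lets cells leave the mitotic program and enter an extended meiotic prophase. Later transcription in spermatocytes depends on A-MYB, encoded by *Mybl1*, and on the basic helix-loop-helix factor TCFL5. ZFP541 and KCTD19 form a chromatin complex with histone deacetylases that is needed for progression through the pachytene stage, and *Mtl5* (*Tesmin*) encodes a metallothionein-like, CXC-domain protein of spermatocytes.

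RPF abundance did not move in 1 direction across these genes. *Stra8* fell 2.31-fold in *Eef1g*-cKO spermatocytes, whereas *Meioc* rose 3.26-fold and *Mtl5* rose 3.73-fold. The call of *Meioc* was lost when a trend with GC content was removed, which left its log2 fold change at 1.06. *Zfp541*, *Kctd19*, *Ythdc2* and *Mybl1* were higher in both *Eef1g*-cKO libraries than in both control libraries without passing the test, and the libraries of *Tcfl5* overlapped.

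The coding sequences of the 8 genes differ in base composition. The changes measured depended on whether a trend with GC content was removed, most of all for the AT-rich genes. The central 40 codons of 3 genes are printed as examples. They were read from the GENCODE M21 transcripts (GRCm38), and capitals mark a G or C at the last position of a codon.
Mybl1, codons 357 to 396: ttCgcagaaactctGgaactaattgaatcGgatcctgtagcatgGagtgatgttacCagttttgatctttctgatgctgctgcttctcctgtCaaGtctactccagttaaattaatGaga
Mtl5, codons 219 to 258: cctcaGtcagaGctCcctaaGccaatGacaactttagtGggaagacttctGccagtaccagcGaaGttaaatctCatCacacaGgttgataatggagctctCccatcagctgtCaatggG
Stra8, codons 178 to 217: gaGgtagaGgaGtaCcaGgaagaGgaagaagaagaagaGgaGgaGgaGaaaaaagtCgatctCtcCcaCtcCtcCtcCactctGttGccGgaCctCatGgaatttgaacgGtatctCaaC

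Of these 40 codons, 8 ended in G or C in *Mybl1*, 15 in *Mtl5* and 26 in *Stra8*. The *Mtl5* stretch is poorer in G and C than the whole coding sequence of that gene. Of all *Mtl5* codons, 64.3% ended in G or C, above the 57.9% of *Stra8*. Over the whole coding sequence, 32.7% of *Meioc* codons and 33.1% of *Mybl1* codons ended in G or C, against a median of 60.1% over 10116 tested genes with a coding sequence. These values lay at the 0.722 and 0.850 percentiles of those genes. *Ythdc2* was also AT-rich, with 38.04% of its codons ending in G or C, at the 4.07 percentile. The other 5 genes lay between 57.9% for *Stra8*, at the 44.5 percentile, and 67.1% for *Tcfl5*, at the 73.1 percentile. By GC content of the whole coding sequence, these 5 genes ran from the 40.8 percentile for *Stra8* to the 92.1 percentile for *Tcfl5*. Coding length ran from 1182 bases in *Stra8* to 4338 bases in *Ythdc2*, against a median of 1428 bases.

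Promoter windows from RefSeq (GRCm38.p6), reaching 250 bases before and 50 bases after an annotated start, were held for 5 of the genes, with 2 windows for *Mtl5*. Those of *Stra8* and the second start of *Mtl5* are printed because these were the gene that fell and the gene with the largest increase. Capitals mark matches, on either strand, to the nuclear receptor motif AGGTCA and to the E-box forms CACGTG and CACGCG.
Stra8, chr6:34920698-34920997, plus strand: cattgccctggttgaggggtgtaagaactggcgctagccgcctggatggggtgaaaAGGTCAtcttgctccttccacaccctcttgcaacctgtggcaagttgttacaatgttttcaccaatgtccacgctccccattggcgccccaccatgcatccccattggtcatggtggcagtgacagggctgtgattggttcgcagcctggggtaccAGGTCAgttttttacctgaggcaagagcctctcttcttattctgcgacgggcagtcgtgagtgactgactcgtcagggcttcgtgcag
Mtl5, chr19:3389128-3389427, plus strand: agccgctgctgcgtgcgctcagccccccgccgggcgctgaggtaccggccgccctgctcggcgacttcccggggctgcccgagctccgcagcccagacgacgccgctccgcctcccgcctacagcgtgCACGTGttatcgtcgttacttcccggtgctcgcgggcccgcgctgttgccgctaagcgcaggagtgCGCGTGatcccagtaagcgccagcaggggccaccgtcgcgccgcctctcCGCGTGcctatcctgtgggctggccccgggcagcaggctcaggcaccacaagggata

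The *Stra8* window held 2 copies of AGGTCA, letters that retinoic acid receptors can bind, and this motif was found in 16.3% of all 32851 promoter windows. The printed *Mtl5* window held 1 CACGTG and 2 CACGCG, which were found in 7.15% and 9.27% of windows. The window of the first *Mtl5* start, which is not printed, held no match to either E-box form or to the nuclear receptor motif. The letters CNCCTCAG, searched as the STRA8 and MEIOSIN motif, were found in 7.94% of windows and, among those of the 8 genes, once in *Tcfl5*, whose window also held 1 CACGCG. The letters AACNG of MYB factors were present in each of the 6 windows, as they were in 80.3% of all windows.

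The libraries differed in depth. Reads recovered from the table totalled 2479504 in control replicate 1 and 1384282 in control replicate 2, but 223906 in *Eef1g*-cKO replicate 1 and 407979 in replicate 2, a 6.11-fold difference in mean depth. *Eef1g* itself was represented by 107 and 58 reads in control spermatocytes, against 0 and 4 reads after its deletion. Its log2 fold change was -3.39 ± 0.91 (SE), with an adjusted p of 0.0731 in limma and of 0.0078 in edgeR. Markers of leptotene and zygotene spermatocytes were abundant in each library, with summed FPKM of 1555 and 1196 in control, against 3696 and 3214 in *Eef1g*-cKO. Markers of spermatogonia were also present, and their sum was 1489 and 1759 FPKM in control against 249 and 228 FPKM in *Eef1g*-cKO. The 8 Sertoli cell markers summed to 670 FPKM in control replicate 1, 160 in control replicate 2, 150 in *Eef1g*-cKO replicate 1 and 109 in *Eef1g*-cKO replicate 2. The part of these differences in cell markers and depth in the results was not tested. In sorted populations, fewer cells of a type and less RNA per cell cannot be told apart. RPF abundance also combines the amount of an mRNA with its translation, and RNA-seq was not analysed here.

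*Stra8*, the retinoic acid-induced regulator of meiotic entry, was measured at 260 and 252 FPKM in control and at 126 and 96.0 FPKM in *Eef1g*-cKO spermatocytes. Both *Eef1g*-cKO libraries were below both control libraries, and each pair of libraries gave a ratio between 0.369 and 0.499. The mean was 256 ± 5.70 FPKM in control and 111 ± 21.1 FPKM in *Eef1g*-cKO (SD, n = 2 each). The values rested on 939 and 508 reads in control and on 41 and 57 reads in *Eef1g*-cKO, and the exact 95% Poisson intervals of the *Eef1g*-cKO libraries reached from 90.3 to 171 FPKM and from 72.7 to 124 FPKM. The log2 fold change of FPKM + 1 was -1.21 ± 0.22 (SE; 95% interval -1.75 to -0.67; limma adjusted p = 0.0379). The median over all 10475 tested genes was -0.23, and the change of *Stra8* lay at the 18.97 percentile of these values. When the libraries were centred on their medians, which shifts all changes by 0.21, the value was -0.999 and no longer passed the threshold of 1. Without *Eef1g*-cKO replicate 2 it was -1.02, with an adjusted p of 0.0815, and without control replicate 1 or 2 it was -1.19 or -1.24, with adjusted p of 0.246 and 0.283. *Stra8* is also transcribed in differentiating spermatogonia. In the same libraries 6 of the 10 spermatogonial markers fell and none rose, beside 4.97% and 2.87% of all tested genes. The median log2 fold change of the 10 markers was -1.99. By immunostaining, the study reported comparable shares of leptotene and zygotene cells in the sorted populations of both genotypes. The part of spermatogonia in the change of *Stra8* was not tested.

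**Figure D1:**
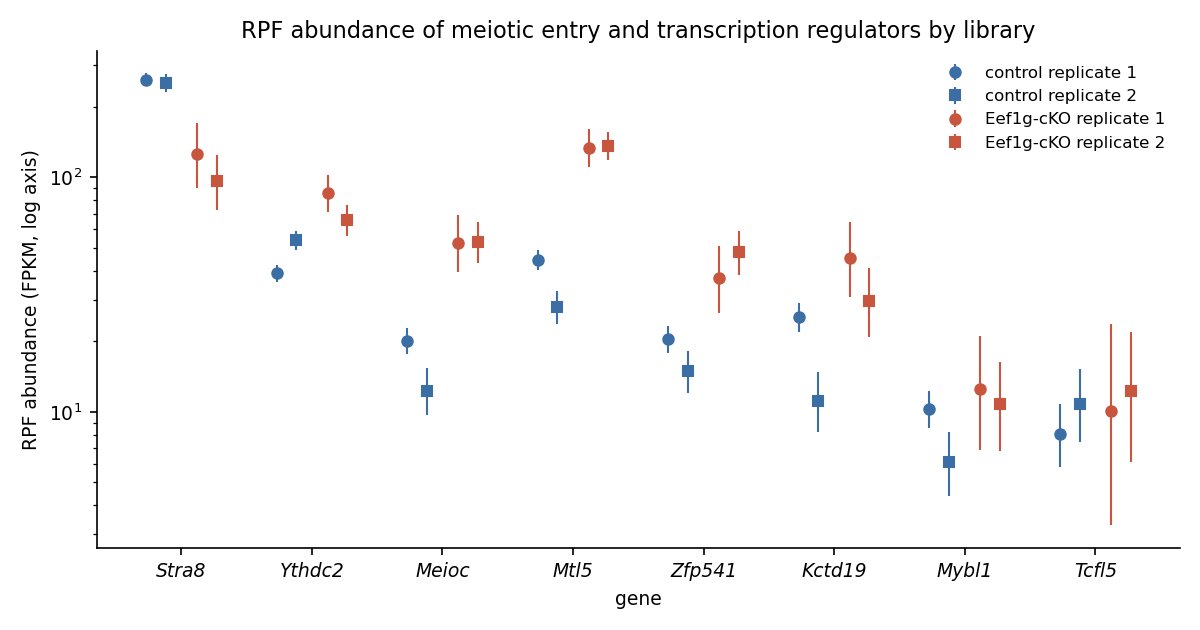
RPF abundance (FPKM, log axis) of the 8 genes in each of the 4 libraries, with control libraries in blue, *Eef1g*-cKO libraries in red, and bars giving the exact 95% Poisson interval of the reads. *Stra8* was lower in both *Eef1g*-cKO libraries, 6 genes were higher in both, and the libraries of *Tcfl5* overlapped.

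*Meioc* and *Ythdc2* encode partners in 1 RNA-binding complex. *Meioc* was measured at 20.1 and 12.3 FPKM in control and at 52.7 and 53.0 FPKM in *Eef1g*-cKO. The lowest *Eef1g*-cKO library was 2.62-fold above the highest control library, and the means were 16.2 ± 5.50 and 52.9 ± 0.230 FPKM (SD, n = 2 each). Limma put the change of *Meioc* on the log2 scale at 1.68 ± 0.31 (SE; 95% interval 0.93 to 2.44; adjusted p = 0.0379), at the 97.6 percentile of all tested genes. With a trend of abundance with coding GC content removed it was 1.06 and was not called (adjusted p = 0.0655). *Ythdc2* was measured at 38.9 and 53.8 FPKM in control and at 85.8 and 65.8 FPKM in *Eef1g*-cKO, from 608, 469, 121 and 169 reads. Both *Eef1g*-cKO libraries were again higher, by 1.22-fold to 2.20-fold over the pairs of libraries. The log2 fold change of *Ythdc2* was 0.70 ± 0.27 (SE; 95% interval 0.04 to 1.36) and was not called in limma (adjusted p = 0.146). In edgeR and DESeq2 its adjusted p was 0.0177 and 0.0440, with log2 fold changes of 0.78 and 0.76 that stayed under the threshold of 1. The ratio of *Meioc* to *Ythdc2* FPKM was 0.516 and 0.229 in control, against 0.614 and 0.806 in *Eef1g*-cKO, so that *Meioc* had the lower level of the 2 partners in every library.

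*Mtl5* had the largest increase of the 8 genes. It was measured at 44.5 and 27.9 FPKM in control, from 431 and 151 reads, and at 134 and 136 FPKM in *Eef1g*-cKO, from 117 and 217 reads. The control libraries differed 1.59-fold from each other and the *Eef1g*-cKO libraries 1.02-fold, and the pairs of libraries gave increases of 3.01-fold to 4.88-fold. Mean abundance was 36.2 ± 11.7 FPKM in control and 135 ± 1.69 FPKM in *Eef1g*-cKO (SD, n = 2 each), and the log2 fold change was 1.91 ± 0.28 (SE; 95% interval 1.23 to 2.59; limma adjusted p = 0.0307), at the 98.5 percentile. Without control replicate 1 the increases of *Mtl5* and *Meioc* were 2.23 and 2.02 on the log2 scale, with adjusted p of 0.0563 and 0.104. Without control replicate 2 they were 1.58 and 1.35, with adjusted p of 0.0774 and 0.162. Control replicate 1 held the higher value of both genes. Its marker sums were also higher than in control replicate 2 for Sertoli cells (670 against 160 FPKM) and peritubular cells. The same was so for leptotene and zygotene cells (1555 against 1196 FPKM) and pachytene cells (597 against 462 FPKM). For spermatogonia, spermatids and Leydig cells its sums were lower. The part of these differences in the values of *Mtl5* and *Meioc* was not tested.

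*Zfp541* and *Kctd19* encode subunits of the same histone deacetylase complex. *Zfp541* was measured at 20.4 and 14.9 FPKM in control and at 37.2 and 47.8 FPKM in *Eef1g*-cKO, from 231, 94, 38 and 89 reads. Its log2 fold change was 1.23 ± 0.29 (SE; 95% interval 0.51 to 1.94), which missed the limma threshold with an adjusted p of 0.0575, whereas edgeR gave 1.35 (adjusted p = 0.00141) and DESeq2 1.34 (adjusted p = 0.00461). *Kctd19* was measured at 25.3 and 11.1 FPKM in control and at 45.4 and 29.8 FPKM in *Eef1g*-cKO, from 191, 47, 31 and 37 reads. The *Eef1g*-cKO libraries were the higher ones for both genes, but the control libraries of *Kctd19* differed 2.27-fold from each other. The log2 fold change of *Kctd19* was 1.08 ± 0.44 (SE; 95% interval -0.01 to 2.17; limma adjusted p = 0.168), and its adjusted p was 0.0505 in edgeR and 0.126 in DESeq2. The ratio of *Zfp541* to *Kctd19* FPKM was 0.808 and 1.34 in control, against 0.819 and 1.61 in *Eef1g*-cKO, so that the ratios of the 2 genotypes overlapped.

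*Mybl1* and *Tcfl5*, which encode transcription factors of pachytene spermatocytes, had the lowest FPKM values. *Mybl1* was measured at 10.3 and 6.09 FPKM in control and at 12.5 and 10.8 FPKM in *Eef1g*-cKO, with only 14 and 22 reads in the *Eef1g*-cKO libraries. The *Eef1g*-cKO libraries lay just above the higher control library. Its log2 fold change was 0.50 ± 0.39 (SE; 95% interval -0.47 to 1.47; limma adjusted p = 0.421). *Tcfl5* was measured at 8.04 and 10.8 FPKM in control and at 10.1 and 12.2 FPKM in *Eef1g*-cKO, from 44, 33, 5 and 11 reads. These libraries overlapped, and the log2 fold change was 0.23 ± 0.35 (SE; 95% interval -0.64 to 1.11; limma adjusted p = 0.686). Neither gene was called, and the intervals do not show that their abundance was alike in the 2 genotypes.

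**Figure D2:**
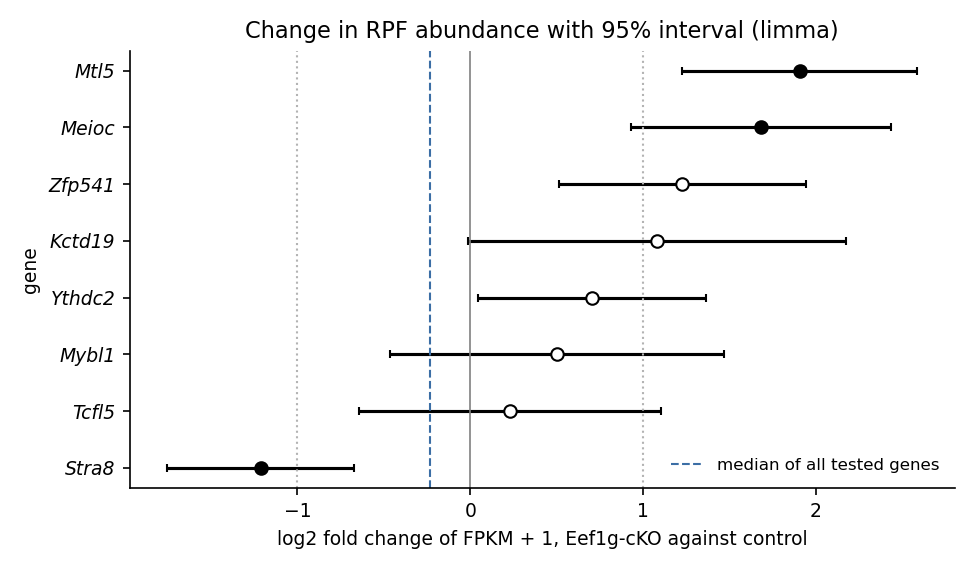
Log2 fold change of FPKM + 1 between *Eef1g*-cKO and control for the 8 genes, with points for the limma estimate, bars for its 95% interval, filled points for called genes, dotted lines at a change of 1 in either direction and a dashed line at -0.23, the median of all tested genes. *Mtl5* and *Meioc* were called as increased and *Stra8* as decreased.

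Calls required an adjusted p under 0.05 together with a log2 fold change beyond 1 in either direction. In limma, 2 of the 8 genes were called as increased, where 2.87% of all tested genes were, and 1 was called as decreased, where 4.97% were. By unadjusted p, 3 genes passed upward and 1 downward, beside 7.32% and 16.3% of all tested genes. In edgeR, on the recovered reads, *Meioc*, *Mtl5* and *Zfp541* were called as increased and *Stra8* as decreased, and the background was 8.75% and 11.2% of the genes tested there. DESeq2 called the same 4 genes, with 7.86% and 7.14% of the genes that had an adjusted p. For 6 of the 8 genes the lower *Eef1g*-cKO library exceeded the higher control library, which was so for 24.6% of all tested genes. The reverse was found for *Stra8* and for 37.7% of all tested genes. Without control replicate 1 or 2, no gene in the whole table passed limma's adjusted test at this threshold, whereas 548 and 479 passed upward and 1013 and 795 downward by unadjusted p, *Stra8*, *Meioc* and *Mtl5* among them. The calls in the gene lists were lost in the same way. An exact permutation test of 2 against 2 libraries cannot give a p below 0.333. The median log2 fold change of the 8 genes was 0.89, beside -0.23 over all tested genes, and 7 of the 8 values were above 0. *Mtl5* and *Zfp541* are genes that the study itself named as increased in these libraries. The counts and the median of the group are therefore not independent evidence.

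The order of FPKM within the group changed. The gene length deposited with the FPKM exceeded the coding length. It was 3909 against 1428 bases in *Mtl5* and 1455 against 1182 bases in *Stra8*. The order below therefore holds for FPKM, and an order per coding length was not computed. In control spermatocytes *Stra8* had the highest FPKM of the 8 genes in both libraries. It was followed by *Ythdc2* and *Mtl5*, whose libraries overlapped. Then came *Kctd19*, *Zfp541* and *Meioc*, which also overlapped, and *Tcfl5* and *Mybl1* were last. In *Eef1g*-cKO spermatocytes *Mtl5* came first in both libraries, followed by *Stra8*, *Ythdc2* and *Meioc*, each separate from the next, and *Zfp541* and *Kctd19* overlapped, as did *Mybl1* and *Tcfl5*. The ratio of *Mtl5* to *Stra8* FPKM was 0.171 and 0.111 in control, against 1.06 and 1.42 in *Eef1g*-cKO. The ratio of *Stra8* to *Meioc* FPKM was 13.0 and 20.5 in control, against 2.39 and 1.81 in *Eef1g*-cKO. *Stra8* held 60.8% and 64.8% of the group's summed FPKM in the control replicates, against 25.01% and 21.3% after deletion of *Eef1g*. Scaled to library size (RPM), the 8 genes together took 1129 and 1027 RPM in the control replicates and 1880 and 1718 RPM in the *Eef1g*-cKO replicates. Without *Stra8* they took 750 and 660 RPM in control against 1697 and 1579 RPM in *Eef1g*-cKO. These ratios, totals and shares are a description, with no test. The ratios between genes and the shares of FPKM also depend on the deposited gene lengths.

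**Figure D3:**
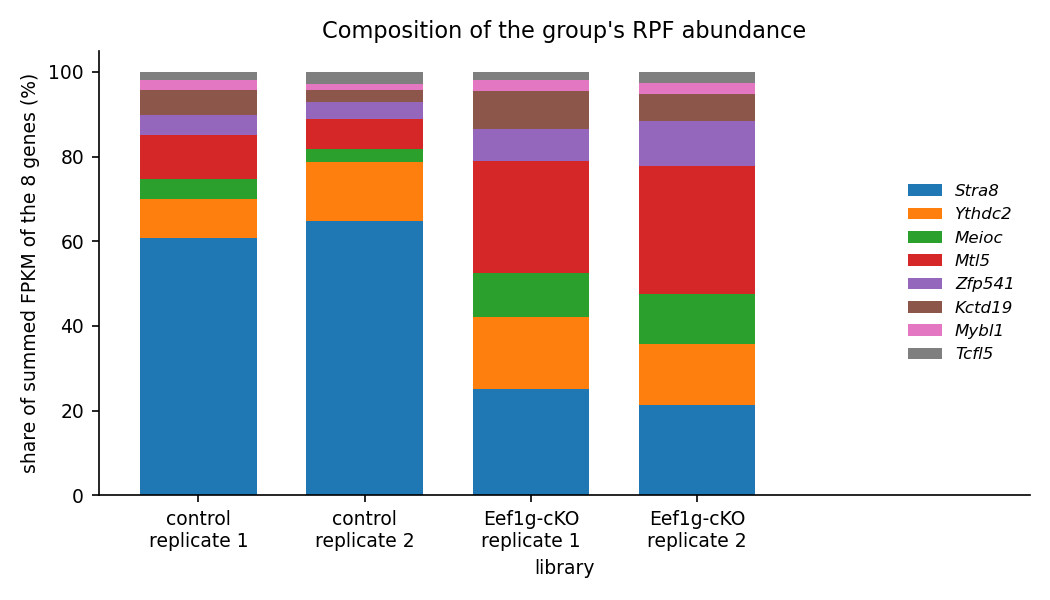
Share of the summed FPKM of the 8 genes (%) that each gene took in each library, stacked to 100%. The share of *Stra8* was 60.8% and 64.8% in control, against 25.01% and 21.3% in *Eef1g*-cKO.

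A correction for base composition lowered the values of the AT-rich genes. Where the trend with GC content differs between the genotypes, such a correction by construction shifts genes of low and high GC content in opposite directions. When a smooth trend of log2 abundance with coding GC content was removed from each library, the change of *Meioc* moved from 1.68 to 1.06 and was no longer called (adjusted p = 0.0655). The change of *Ythdc2* moved from 0.70 to 0.28, and that of *Mybl1* from 0.50 to -0.11, which turned its direction. The GC-richer genes moved the other way, with *Mtl5* at 2.19, *Zfp541* at 1.47 and *Tcfl5* at 0.57, and *Zfp541* was then called (adjusted p = 0.0392). *Stra8*, with a coding GC content of 51.1% against a median of 52.8%, was at -1.26. The coding GC content of *Meioc* was 40.3% and that of *Mybl1* 40.6%. The part of base composition in the changes was not tested.

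**Figure D4:**
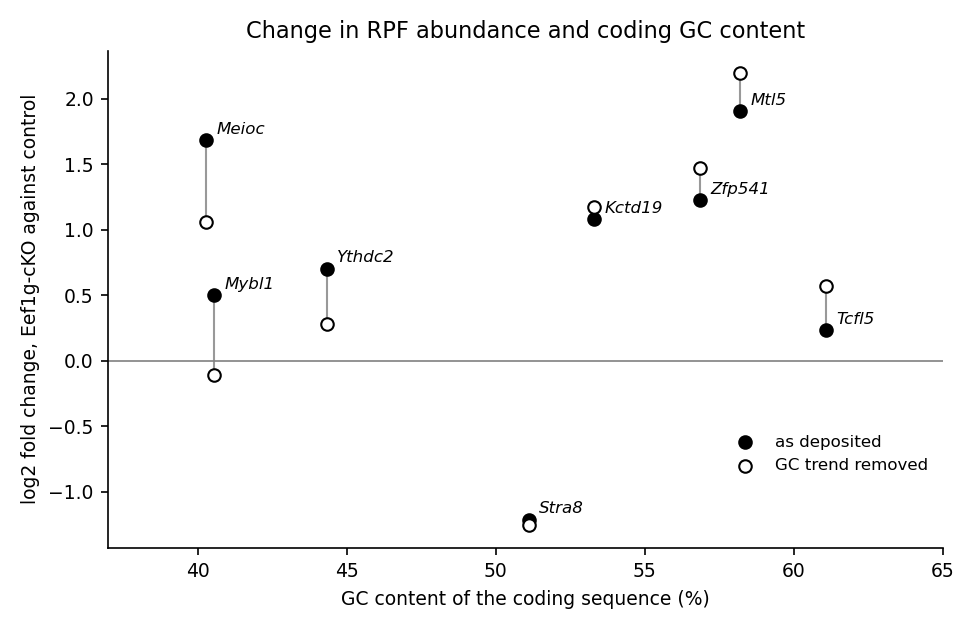
Log2 fold change between *Eef1g*-cKO and control against GC content of the coding sequence (%) for the 8 genes, as deposited (filled) and after the trend with GC content was removed from each library (open). *Meioc*, *Mybl1* and *Ythdc2*, the 3 genes of lowest GC content, moved down, and *Mtl5*, *Zfp541* and *Tcfl5* moved up.

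Of 24 tested partners and upstream regulators of the 8 genes, 3 fell and none was called as increased by limma, beside 4.97% and 2.87% of all tested genes. Both *Eef1g*-cKO libraries were below both control libraries for 15 of them and above for 3, beside 37.7% and 24.6% of all tested genes, and the median log2 fold change was -0.81, beside -0.23 over all tested genes. By unadjusted p, 9 passed downward and 1 upward, beside 16.3% and 7.32%, and edgeR called 6 and 1, beside 11.2% and 8.75%. The 3 genes that fell were *Crabp1*, a retinoic acid-binding protein (-3.19, adjusted p = 0.0250), *Sohlh1*, a spermatogonial helix-loop-helix factor (-2.84, adjusted p = 0.0297), and *Dmrt1*, which represses *Stra8* in spermatogonia (-1.91, adjusted p = 0.0233). *Dmrt1* was measured at 199 and 259 FPKM in control and at 59.5 and 59.9 FPKM in *Eef1g*-cKO, and with *Sohlh1* it is also 1 of the 10 spermatogonial markers. *Rbm46*, a partner of MEIOC and YTHDC2, was measured at 44.8 and 36.1 FPKM in control and at 76.0 and 73.1 FPKM in *Eef1g*-cKO, with a log2 fold change of 0.88 (adjusted p = 0.0664 in limma and 0.00636 in edgeR). *Dnttip1*, a subunit of the deacetylase complex of ZFP541, was at 68.4 and 89.4 FPKM in control and at 136 and 82.8 FPKM in *Eef1g*-cKO (0.44, adjusted p = 0.370). The deacetylases *Hdac1* and *Hdac2* gave -0.51 (adjusted p = 0.420) and -0.19 (adjusted p = 0.583), and neither was called. The retinoic acid receptor *Rara* had 22 and 19 reads in control and 1 read in each *Eef1g*-cKO library (-1.02, adjusted p = 0.240). *Meiosin* was not analysed here.

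Of 20 later meiotic transcription regulators, limma called 1 as increased and 0 as decreased, beside 2.87% and 4.97% of all tested genes, with a median log2 fold change of 0.29, beside -0.23 over all tested genes. By unadjusted p, 1 passed in each direction, beside 7.32% upward and 16.3% downward, and edgeR called 2 as increased and 0 as decreased, beside 8.75% and 11.2%. The called gene was *Sox30*, a transcription factor of late spermatocytes and spermatids, which was measured at 4.71 and 5.55 FPKM in control and at 20.9 and 18.8 FPKM in *Eef1g*-cKO (1.77, adjusted p = 0.0403). It rested on 35 and 23 reads in control and on 14 and 23 reads in *Eef1g*-cKO. Of 7 pachytene markers, 1 was called, as increased, beside 2.87% of all tested genes, and their sum was 597 and 462 FPKM in control and 1753 and 1697 FPKM in *Eef1g*-cKO. *Hist1h1t*, the testis-specific linker histone, made up most of that sum, with 388 and 301 FPKM in control and 1458 and 1354 FPKM in *Eef1g*-cKO. In adult *Eef1g*-cKO testes, the study found no spermatocytes with H1T protein signal and no pachytene spermatocytes. Those are protein and cell measures at another age than the RPF values, so the marker sum does not show the presence of pachytene cells.

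Among 20 genes known as targets of STRA8 with MEIOSIN, of MEIOC with YTHDC2, or of A-MYB, 5 rose and 2 fell, beside 2.87% and 4.97% of all tested genes, with a median log2 fold change of 0.50 against -0.23 over all tested genes. By unadjusted p 6 passed upward and 3 downward, beside 7.32% and 16.3%, and edgeR called 6 and 1, beside 8.75% and 11.2%. With the GC trend removed, 1 was called as increased. The genes that rose were *Hormad1* (2.29, adjusted p = 0.0296), *Meiob* (1.57, adjusted p = 0.0320), *Smc1b* (1.45, adjusted p = 0.0296), *Sycp3* (1.38, adjusted p = 0.0389) and *Dmc1* (1.04, adjusted p = 0.0426). They encode proteins of the chromosome axis, of meiotic cohesin and of strand exchange. All 7 leptotene and zygotene markers are also in this list of targets, *Hormad1*, *Meiob*, *Sycp3* and *Dmc1* among them. The marker list and the target list are thus not separate observations. The genes that fell were *Tdrd1* (-1.41, adjusted p = 0.0379) and *Tdrd9* (-1.09, adjusted p = 0.0478), which act in the piRNA pathway of germ cells. The 5 that rose, like *Mtl5* and *Zfp541*, are genes that the study itself picked out on these libraries, so their direction is not independent evidence. *Rec8*, the meiotic cohesin subunit that is a target of STRA8, was not called, at 22.2 and 48.5 FPKM in control and 26.1 and 19.1 FPKM in *Eef1g*-cKO, and it was added to the named genes after its values were seen.

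The levels of the 8 genes had close neighbours outside the group. By Euclidean distance of log2(FPKM + 1) over the 4 libraries, the nearest gene was *Eif1ax* for *Stra8* (0.33), *Pigk* for *Meioc* (0.33), *Tmx4* for *Mtl5* (0.37), *Tctex1d2* for *Ythdc2* (0.16), *Senp2* for *Zfp541* (0.21), *Coq9* for *Kctd19* (0.29), *1600002K03Rik* for *Mybl1* (0.18) and *Dhx34* for *Tcfl5* (0.14). *Eif1ax*, a translation initiation factor, was measured at 268 and 235 FPKM in control and at 154 and 90.0 FPKM in *Eef1g*-cKO. *Tmx4*, a thioredoxin-related membrane protein, was measured at 41.0 and 22.3 FPKM in control and at 139 and 151 FPKM in *Eef1g*-cKO. With 4 libraries, such likeness is a description of level and genotype difference together.

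Each gene was refitted under 16 processing alternatives. Over the 128 values of the 8 genes, 127 kept the direction of the main analysis, and the exception was *Mybl1* after removal of the GC trend. The alternatives ran from -1.41 to -0.999 on the log2 scale for *Stra8*, from 1.06 to 2.02 for *Meioc* and from 1.58 to 2.23 for *Mtl5*. When reads were drawn down to the depth of the smallest library, the medians over 20 draws were -1.20 for *Stra8*, 1.66 for *Meioc* and 1.94 for *Mtl5*, with draws from -1.39 to -0.996, from 1.32 to 2.45 and from 1.67 to 2.43. In the first of these draws no gene in the whole table was called by adjusted p, whereas 701 genes passed upward and 1257 downward by unadjusted p, and *Meioc*, *Mtl5*, *Zfp541* and *Stra8* were among them.

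**Figure D5:**
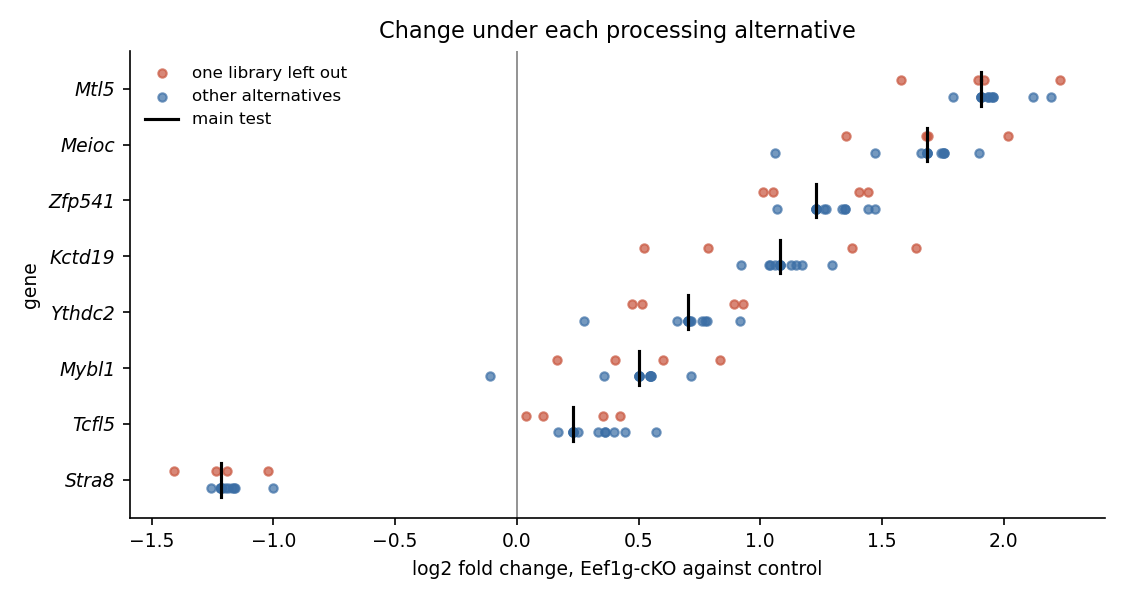
Log2 fold change between *Eef1g*-cKO and control of the 8 genes under the 16 processing alternatives, with red points for fits that left out 1 library, blue points for the other alternatives and black bars for the main test. *Stra8* stayed below 0 throughout, and *Mybl1* crossed 0 when the GC trend was removed.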

How the data were processed

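Ribo-seq libraries of leptotene/zygotene spermatocytes from 12 dpp testes were analysed from 1 gene table (2 control, 2 *Eef1g*-cKO). RPFs were made with RNase I and size-selected. Per the submitters' processing notes, cutadapt, Bowtie, STAR, mm10 and hg38 were named without roles, and the counting tool is not given in the sources used here. The deposited FPKM were computed by the authors from reads scaled to gene length and library size. The table also holds normalized signal values deposited by the authors (read counts divided by a factor per library), from which whole reads were recovered for 100% of values within a tolerance of 0.001. Columns of the authors' own comparison (log2 fold change, p-value, adjusted p-value) were not used.

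The 10475 genes averaging 1 FPKM or more were tested on log2(FPKM + 1), which understates changes of low genes, with limma (3.58.1; trended prior variance, Benjamini-Hochberg over all tested genes, two-sided). Calls required an adjusted p under 0.05 together with a log2 fold change beyond 1 in either direction. edgeR (4.0.16, quasi-likelihood) and DESeq2 (1.42.0) were run on recovered reads. Other alternatives were the pseudocount, the filter, centring, an untrended prior, thinning, removal of a GC trend (loess, span 0.5), a replicate block and leaving out each library. The procedure was tested on simulated data, in which 200 or 2000 genes were given a log2 fold change of 2. By adjusted p, limma detected 0.0% of the 200 and made 5 false calls. Its detection rose to 55.85% of the 2000, with 73 false calls. The corresponding shares were 58.5% and 72.25% in edgeR, with 5 and 78 false calls, and 42.5% and 55.25% in DESeq2, with 0 and 7. By unadjusted p, detection in limma was 84.0% and 82.1%. Depth was 223906 to 2479504 reads, and 1 read per kilobase was worth 0.403 to 4.47 FPKM. Poisson intervals cover counting error only. The libraries are described as independent biological samples.

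The 8 genes, the gene lists and the marker lists were chosen with earlier results of these data known. Named beside the 8 genes were called genes of the lists (at most 5 per direction), a few direct partners, and the nearest gene of each member. Symbols were matched through RefSeq (11565 of 11598 genes).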

Additional observations from a re-analysis of the deposited data

How the results depend on the processing

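With 2 libraries per genotype, several adjusted calls were lost under other settings, while 127 of 128 values of the 8 genes kept their direction. With a pseudocount of 0.1 FPKM, an untrended prior variance or reads thinned to the smallest library, no gene of the group was called in either direction. *Stra8* then gave -1.22, -1.21 and -1.20, *Meioc* 1.74, 1.68 and 1.66, and *Mtl5* 1.93, 1.91 and 1.94, and by unadjusted p 3 genes rose and 1 fell in each of the 3 settings. Over all genes these settings called 29, 0 and 0 as increased and 47, 0 and 0 as decreased, and 748, 793 and 701 passed upward by unadjusted p, with 1501, 1811 and 1257 downward. They called 0 partners or upstream regulators as decreased, except 1 with the pseudocount of 0.1 FPKM, and 0 later regulators and 0 known targets in either direction. The cause was not tested.

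Centring the libraries on their medians left *Stra8* at -0.999, not called, so that 0 genes of the group were called as decreased, and gave *Zfp541* 1.44, called. Over all genes 521 were then called as increased, and 2 partners, 2 later regulators and, downward, 1 known target were called. Removing the GC trend left *Meioc* at 1.06, not called, turned *Mybl1* to -0.11, gave *Zfp541* 1.47, called, and left 1 known target called as increased. *Zfp541* was also called in edgeR (1.35 with the count filter and 1.35 without), in DESeq2 (1.34), with a minimum mean of 5 FPKM (1.23) and with a pseudocount of 5 FPKM (1.07). *Kctd19* was called only in edgeR without a count filter (1.04), where 4 genes of the group were called as increased.

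Over all genes, edgeR called 705 as increased and 904 as decreased, or 689 and 876 without a count filter, DESeq2 called 505 as increased, and 767 and 1705 passed by unadjusted p. Both edgeR settings called 1 partner as increased, 6 as decreased and 2 later regulators as increased. DESeq2 called 1 partner and 2 later regulators as increased, and edgeR with its filter called 1 known target as decreased. A minimum mean of 5 FPKM gave 1 partner called as increased. No filter on low values gave 0 later regulators as increased and 1 known target as decreased. By unadjusted p, 1 partner passed upward and 9 downward, and 1 later regulator passed downward.

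Leaving out 1 library moved *Stra8* between -1.41 and -1.02, *Meioc* between 1.35 and 2.02, *Mtl5* between 1.58 and 2.23, and *Zfp541* between 1.01 and 1.44. The group's count of increased genes ranged from 0 to 3 and that of decreased genes from 0 to 1. For partners called as decreased the range was 0 to 6, for later regulators as increased 0 to 1, for known targets as increased 0 to 4 and as decreased 0 to 2, and for all genes 0 to 537 upward and 0 to 1432 downward. The counts of 0 came without either control replicate and, for *Stra8*, also without *Eef1g*-cKO replicate 2. Without control replicate 1 or 2, 548 and 479 genes passed upward and 1013 and 795 downward by unadjusted p. *Stra8*, *Meioc* and *Mtl5* were among the genes that passed in both.

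The sources used here did not say whether replicate numbers pair the libraries. The deviations of control and *Eef1g*-cKO replicate 1 from their group means correlated at r = -0.00804 over 10475 genes. With 2 libraries per genotype, this value cannot show whether they were paired. With a replicate block, limma called 424 genes as increased and 822 as decreased, 2 and 1 of the group, and 1 partner as increased.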
